A study of Mus musculus with 6 samples.

Results

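The CREB module comprises the transcription factors that bind the cAMP-responsive element, the coactivators that join them on DNA, and the salt-inducible kinases (SIKs) that hold one class of these coactivators out of the nucleus. The 10 genes examined were the CREB family factors *Creb1*, *Crem*, and *Atf1*, the CREB-regulated transcription coactivators *Crtc1*, *Crtc2*, and *Crtc3*, the histone acetyltransferase gene *Crebbp*, and the kinase genes *Sik1*, *Sik2*, and *Sik3*. They were taken by symbol from the 53715 genes of the count table, and all 10 were among the 16330 genes that passed the filter on low counts. RNA was measured by RNA-Seq in the cerebellum of male C57BL/6 mice aged 4 weeks (C57BL/6J for both parental lines in the methods), in 3 control and 3 *Slc39a8*-NSKO samples. They are called mice here, as the methods give 3 mice per genotype, although a legend of the study speaks of technical triplicates. The knockout samples are labelled slc39a8-KO, and in these mice Cre recombinase under the synapsin I promoter deletes floxed *Slc39a8*, which encodes a manganese, zinc, and iron importer, in neurons. Other cells of the cerebellum keep the gene, and the strength of this Cre driver can vary between brain regions. The control samples are labelled WT, while the study's text also calls its control mice *Slc39a8* fl/fl.

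CREB1, CREM, and ATF1 are basic leucine zipper proteins that dimerize on the cAMP-responsive element (CRE). When cAMP or calcium rises, protein kinase A and calcium-dependent kinases phosphorylate CREB, which then recruits CREBBP (CBP) to acetylate chromatin and start transcription. The same signals release CRTC proteins from 14-3-3 proteins in the cytoplasm, because protein kinase A inhibits the SIKs and calcineurin removes the phosphates that SIKs placed on CRTCs. *Sik1* is itself induced by CREB, which closes a negative feedback loop, and *Crem* has an internal promoter that gives the short, inducible repressor ICER. In neurons this module couples synaptic activity to gene expression, plasticity, and survival.

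Counts on genes ranged from 14431260 to 20844267 per mouse, with control mouse 2 the lowest. *Slc39a8* had between 44 and 99 counts in control and between 38 and 41 in *Slc39a8*-NSKO mice, with no overlap in counts scaled to the normalized library size (CPM) but an adjusted p of 0.534 in the quasi-likelihood test of edgeR. Markers of cerebellar neurons were abundant in every mouse. The 8 granule cell markers summed to 5361 to 5496 CPM in control and 5299 to 5774 CPM in *Slc39a8*-NSKO mice, and the 8 Purkinje cell markers to 8067 to 9143 and 8867 to 9551 CPM. Of the 8 cardiac muscle markers, 3 rose in *Slc39a8*-NSKO mice, and the sum of all 8 moved from between 3.02 and 5.56 CPM to between 13.6 and 15.2 CPM, with *Myl7* at 0 in the controls. The sums of the 6 choroid plexus markers overlapped between the genotypes (767 to 1109 and 900 to 1553 CPM), those of the 6 Bergmann glia and astrocyte markers did not (2189 to 2537 and 2577 to 2584 CPM), and no gene of either list passed. All 6 Bergmann glia and astrocyte estimates were above 0 (median log2 fold change 0.08), with 2 at an unadjusted p below 0.05 in edgeR's test. In 2 of these markers the values did not overlap, among them *Gfap*, at 0.40. Most of the choroid plexus sum was *Ttr*, and the estimates of all 6 choroid plexus markers were above 0 (median log2 fold change 0.38), with 3 at an unadjusted p below 0.05 in edgeR's test and *Folr1*, without overlap, at 0.96. No gene passed among the markers of oligodendrocytes (8160 to 9290 and 7585 to 9152 CPM), endothelial cells (128 to 143 and 126 to 141 CPM), or striatum and cerebral cortex (259 to 278 and 264 to 304 CPM). All 6 oligodendrocyte estimates were below 0 (median log2 fold change −0.07), none with an unadjusted p below 0.05 in edgeR's test. Most of the striatum and cerebral cortex sum was *Ppp1r1b*. The estimates of all 6 tested markers of that list were above 0 (median log2 fold change 0.38), with 1 at an unadjusted p below 0.05 in edgeR's test. The values of 2 of them did not overlap, among them *Drd2*, which had 4 to 16 counts per mouse. No marker was at 0 in all 6 mice. The part of the cardiac, choroid plexus, glial, and striatum and cortex marker differences in the results that follow was not tested.

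To ask whether the RNA of the CREB module differed between the genotypes, each gene was tested in a model fitted across all 16330 genes. *Sik1* fell, and none of the other 9 genes passed the threshold of an adjusted p below 0.05. Among all genes tested, 16 passed, or 0.098%. Control and *Slc39a8*-NSKO values were fully separated in 2 of the 10 genes, *Sik1* and *Crem*, and both were lower in *Slc39a8*-NSKO mice. Across all tested genes, the values did not overlap in either direction in 10.3% and were entirely lower in *Slc39a8*-NSKO mice in 5.26%, against which 2 of 10 genes is a small count. The same 2 genes had an unadjusted p below 0.05 in edgeR's test, against 5.39% of all genes. The median log2 fold change was −0.03 over the 10 genes and 0.0011 over all genes tested. The RNA came from bulk tissue, in which fewer cells of a type and less RNA per cell cannot be told apart.

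**Figure D1:**
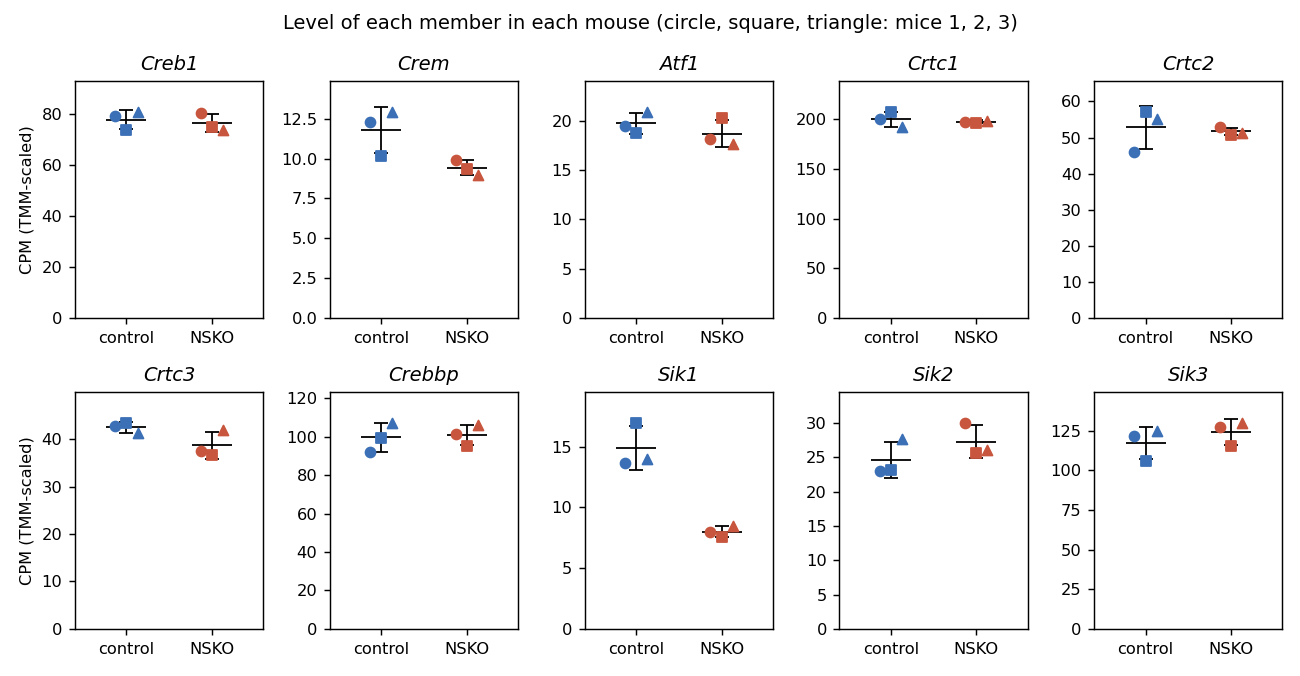
Level of each of the 10 genes in each mouse, in CPM on TMM-normalized library sizes (y axis, from 0), for 3 control and 3 *Slc39a8*-NSKO mice; horizontal lines are means and error bars SD (n = 3). The 3 *Slc39a8*-NSKO mice lie between 7.55 and 8.50 CPM for *Sik1*, all below the controls, whereas the genotypes overlap in 8 of the 10 panels.

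*Sik1* (ENSMUSG00000024042.7) encodes the SIK whose transcription cAMP induces, and its minus-strand locus on chromosome 17 spans bases 31844250 to 31855804 of the build GRCm38. The 3 control mice, in order of their numbers, had 283, 244, and 218 counts, or 13.7, 17.0, and 14.01 CPM. *Slc39a8*-NSKO mice 1 to 3 had 159, 147, and 160 counts, or 7.96, 7.55, and 8.50 CPM. The lowest control mouse was thus 5.16 CPM above the highest *Slc39a8*-NSKO mouse, and the *Slc39a8*-NSKO mice were closer to each other (SD 0.477 CPM, n = 3) than the controls were (SD 1.82 CPM, n = 3). The level in *Slc39a8*-NSKO mice was 0.54 of the control level, with a 95% interval of 0.451 to 0.646. The log2 fold change was −0.89 (standard error, s.e., 0.121, edgeR adjusted p = 0.00723), the 10th lowest p of all genes. The exact two-sided permutation test gave p = 0.1, the smallest that 3 mice against 3 allow. Control mouse 2, whose library was the smallest, had the highest value, and the estimate without that mouse was −0.79 (edgeR adjusted p = 0.0234). Leaving out *Slc39a8*-NSKO mouse 2 gave −0.85, which no longer passed (edgeR adjusted p = 0.0671). No annotated gene overlaps *Sik1*, its counts were whole in all 6 mice, and the longest run of bases that its annotated transcripts share with those of *Sik2* or *Sik3* is 14 bases.

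*Sik2* and *Sik3* encode kinases that phosphorylate the same coactivators, and neither passed the threshold. *Sik2* (chromosome 9, 50892801 to 51009073, minus strand) was 23.1, 23.2, and 27.6 CPM in control mice 1 to 3 and 30.04, 25.7, and 26.0 CPM in *Slc39a8*-NSKO mice 1 to 3. Only control mouse 3 reached the range of the other genotype. The log2 fold change was 0.15 (s.e. 0.093, edgeR adjusted p = 0.993), and the 95% interval of the ratio ran from 0.965 to 1.27. *Sik2* counts were not whole in any of the 6 mice. An exon of *Ppp2r1b*, on the other strand, overlaps *Sik2*, with a shared run of 1429 bases in opposite orientation, and the sources used here do not say whether the counting used the strand, so the value of *Sik2* is less certain than those of the other kinases. *Sik3* (chromosome 9, 46012820 to 46224194, plus strand) was the most abundant of the kinases, with 122, 106, and 125 CPM in control mice 1 to 3 and 128, 115, and 130 CPM in *Slc39a8*-NSKO mice 1 to 3. Its values overlapped, with a log2 fold change of 0.08 (s.e. 0.070, edgeR adjusted p = 0.994) and an interval of the ratio from 0.952 to 1.17.

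Relative to both other kinases of the same mouse, *Sik1* was lower in *Slc39a8*-NSKO than in control mice. The log2 ratio of *Sik1* to *Sik2* counts was −0.76, −0.45, and −0.98 in control mice 1 to 3 and −1.92, −1.77, and −1.61 in *Slc39a8*-NSKO mice 1 to 3. The log2 ratio of *Sik1* to *Sik3* moved from a mean of −2.99 to a mean of −3.96, and neither ratio overlapped between the genotypes, while the ratio of *Sik2* to *Sik3* did. These ratios were chosen after their genes' values were known and were not tested. Expressed per kilobase of annotated exon, *Sik1* made up 16.1% ± 2.79 (SD, n = 3) of the summed level of the 3 kinases in control and 8.78% ± 0.315 (SD, n = 3) in *Slc39a8*-NSKO mice. *Sik3* made up 69.6% ± 2.84 (SD, n = 3) and 75.1% ± 0.866 (SD, n = 3), and *Sik2* 14.2% ± 0.941 (SD, n = 3) and 16.1% ± 1.13 (SD, n = 3). The summed level of the kinases was 18.1 ± 0.967 CPM per kb (SD, n = 3) in control and 17.8 ± 1.07 CPM per kb (SD, n = 3) in *Slc39a8*-NSKO mice, with overlapping values.

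**Figure D2:**
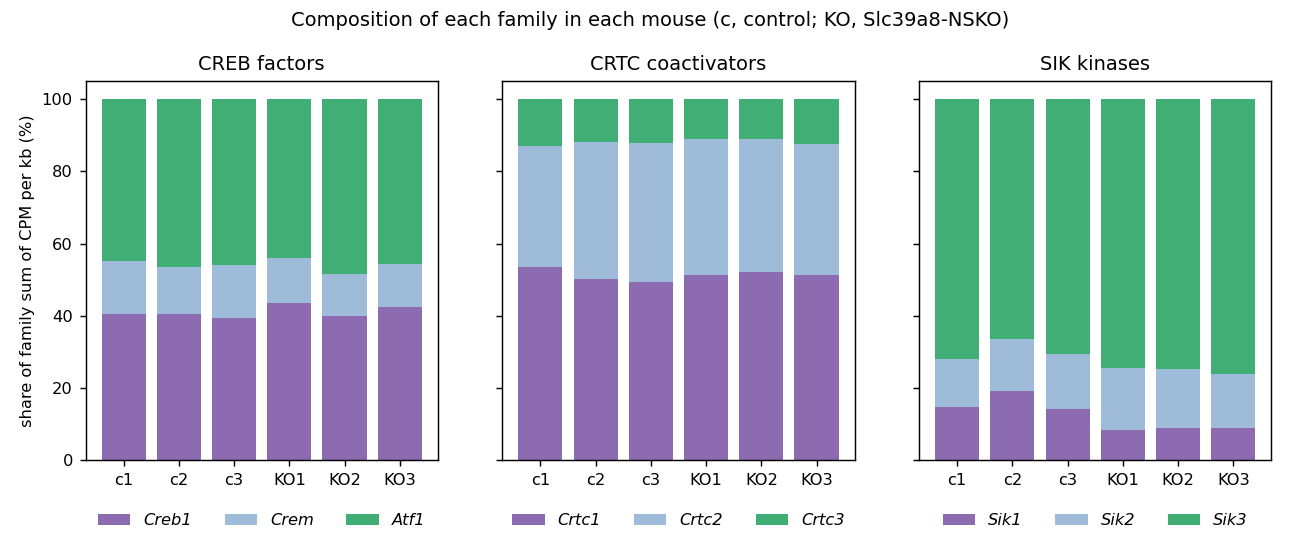
Share of each gene in the summed CPM per kb of its family (y axis, percent) in each of the 6 mice (x axis; c, control; KO, *Slc39a8*-NSKO), for the CREB factors, the CRTC coactivators, and the SIK kinases. The *Sik1* segment spans 14.3% to 19.3% in the controls and 8.43% to 9.02% in the *Slc39a8*-NSKO mice, while the *Crtc* segments overlap between the genotypes. The *Crem* and *Sik3* segments do not overlap either. Because the shares of a family add up to its whole, a lower *Sik1* share raises the summed share of the other kinases.

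*Crem* (ENSMUSG00000063889.16) encodes both activating and repressing CREB family proteins and occupies the minus strand of chromosome 18 between 3266048 and 3337748. It was 12.3, 10.2, and 12.9 CPM in control mice 1 to 3 and 9.91, 9.34, and 8.98 CPM in *Slc39a8*-NSKO mice 1 to 3, from counts between 146 and 254 per mouse. Every *Slc39a8*-NSKO mouse was below every control mouse, although control mouse 2 and *Slc39a8*-NSKO mouse 1 were close. The estimate was −0.33 on the log2 scale (s.e. 0.122), and its p of 0.0184 before adjustment, rank 343 of all genes, became 0.86 after it (edgeR). The ratio was 0.798 with a 95% interval of 0.665 to 0.956. The estimate was below 0 in all 14 alternative fits, between −0.42 and −0.26, and passed in none of them. The annotation lists 39 transcripts of *Crem*, and a count per gene does not divide them into activators and ICER. *Gm6225*, on the other strand, overlaps an exon, and reads from there may not be divided correctly. The *Crem* counts were whole in every mouse.

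*Creb1*, the founding member of the family (chromosome 1, 64532645 to 64604548, plus strand), was 79.2, 73.6, and 80.8 CPM in control mice 1 to 3 and 80.5, 75.1, and 73.8 CPM in *Slc39a8*-NSKO mice 1 to 3. The genotypes overlapped, and the ratio of 0.981 had a 95% interval of 0.896 to 1.08 (log2 fold change −0.03, s.e. 0.061, edgeR adjusted p = 0.994). *Atf1*, whose product heterodimerizes with CREB1 (chromosome 15, 100227819 to 100261244, plus strand), was 19.5, 18.8, and 20.9 CPM in control and 18.2, 20.3, and 17.6 CPM in *Slc39a8*-NSKO mice 1 to 3. These values overlapped too, with a log2 fold change of −0.08 (s.e. 0.089, edgeR adjusted p = 0.994) and an interval of the ratio from 0.83 to 1.08. The log2 ratio of *Crem* to *Creb1* was −2.69, −2.86, and −2.65 in control mice 1 to 3, against −3.02, −3.01, and −3.04 in *Slc39a8*-NSKO mice 1 to 3, without overlap and untested, whereas that of *Atf1* to *Creb1* overlapped.

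None of the coactivator genes passed the threshold. *Crtc1*, the CRTC best known from neurons (chromosome 8, 70382355 to 70439579, minus strand), was the most abundant gene of the module, with 200.1, 207, and 192 CPM in control mice 1 to 3 and 198, 196, and 198 CPM in *Slc39a8*-NSKO mice 1 to 3. Its ratio was 0.987 with an interval of 0.915 to 1.06 (log2 fold change −0.02, s.e. 0.051, edgeR adjusted p = 0.994). *Crtc2*, which is known for its role in hepatic glucose production (chromosome 3, 90254163 to 90264125, plus strand), was 46.0, 57.1, and 55.3 CPM in control and 52.9, 50.8, and 51.4 CPM in *Slc39a8*-NSKO mice, and all *Slc39a8*-NSKO values lay within the range of the controls. Its log2 fold change was −0.03 (s.e. 0.078, edgeR adjusted p = 0.994), with an interval of the ratio from 0.874 to 1.10. *Crtc3* (chromosome 7, 80586627 to 80688877, minus strand) was 42.7, 43.5, and 41.3 CPM in control and 37.5, 36.6, and 41.9 CPM in *Slc39a8*-NSKO mice, so that only *Slc39a8*-NSKO mouse 3 reached the controls. The estimate was −0.14 on the log2 scale (s.e. 0.070), and p was 0.0743 before and 0.954 after adjustment (edgeR). *Crebbp*, whose product acetylates histones at CREB-bound promoters (chromosome 16, 4081328 to 4213997, minus strand), was 92.2, 99.3, and 107 CPM in control and 101, 95.2, and 106 CPM in *Slc39a8*-NSKO mice, with a ratio of 1.01 and an interval of 0.918 to 1.12 (edgeR adjusted p = 0.995). For the 8 genes other than *Sik1* and *Crem*, the 95% intervals of the ratio together spanned 0.819 to 1.27. With 3 mice per genotype, ratios inside a gene's interval cannot be told apart from its estimate. The intervals are not limits of detection, because the threshold applied to p values adjusted over all genes tested.

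**Figure D3:**
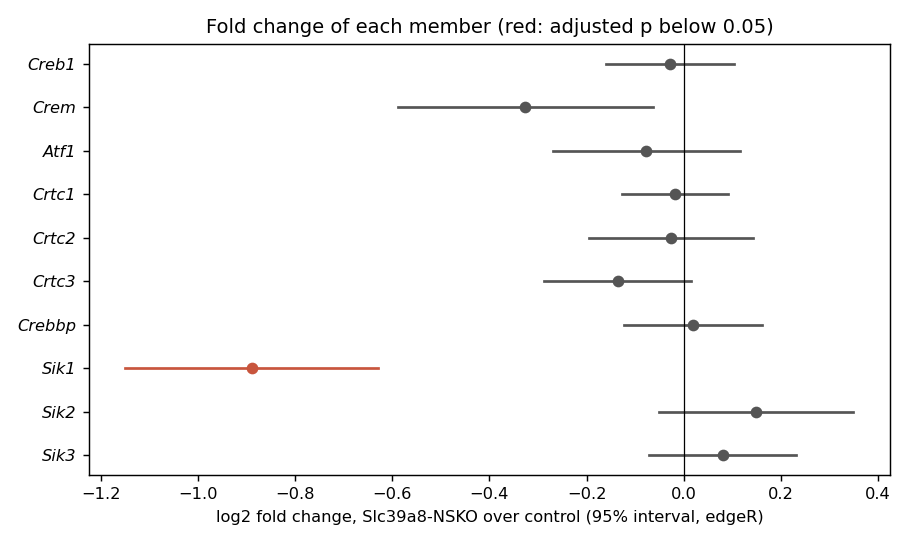
Log2 fold change of each gene in *Slc39a8*-NSKO over control cerebellum (x axis; point, edgeR estimate; line, 95% interval; n = 3 mice per genotype). The interval of *Sik1* runs from −1.15 to −0.63, that of *Crem* from −0.59 to −0.06, and the other 8 intervals include 0.

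Levels were also ordered within the module after division by the union of annotated exons. In control mice, *Crtc1* was highest at 17.9 ± 0.678 CPM per kb (SD, n = 3), followed by *Crtc2* at 12.9 ± 1.45 and *Sik3* at 12.6 ± 1.09, whose values overlapped. *Crebbp* (7.36 ± 0.555 CPM per kb) and *Atf1* (6.44 ± 0.350 CPM per kb) overlapped as neighbors, whereas *Creb1* (5.67 ± 0.278 CPM per kb) and *Crtc3* (4.31 ± 0.114 CPM per kb) each stood apart from the gene before them (SD, n = 3 each). *Sik1* (2.90 ± 0.354 CPM per kb) overlapped with *Sik2* (2.58 ± 0.273 CPM per kb), and *Crem* was the lowest at 1.998 ± 0.245 CPM per kb (SD, n = 3 each). Averaged over all 6 mice, *Crtc1* stood at the 82.6th and *Crem* at the 31.8th percentile of the genes tested. In *Slc39a8*-NSKO mice, *Sik1* was the lowest of the 10 genes at 1.56 ± 0.0930 CPM per kb (SD, n = 3), overlapping with *Crem* at 1.597 ± 0.0799 CPM per kb (SD, n = 3), while *Sik2* was at 2.86 ± 0.254 CPM per kb (SD, n = 3). With the longest annotated transcript as the length, *Sik1* was already the lowest gene in control mice, at 3.29 CPM per kb against 4.02 for *Crem* and 4.59 for *Sik2*, so its place relative to these neighbors depends on the length used. That length also put *Sik3* (18.7 CPM per kb) above *Crtc2* (17.6 CPM per kb), *Creb1* (9.31 CPM per kb) above *Crebbp* (9.20 CPM per kb) and *Atf1* (8.34 CPM per kb), and *Crtc3* (8.30 CPM per kb) next to *Atf1*, while *Crtc1* stayed first.

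**Figure D4:**
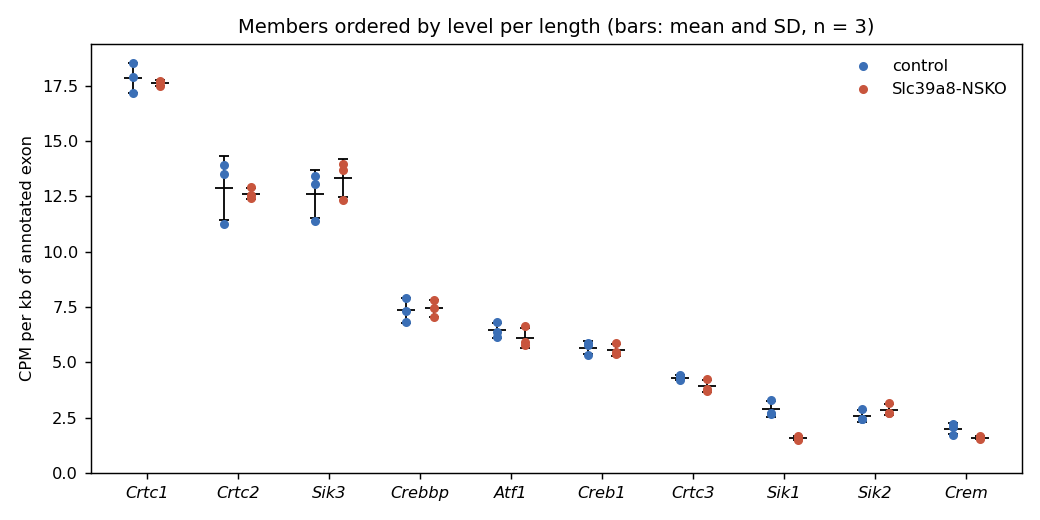
Level of each gene per kilobase of annotated exon (y axis, CPM per kb, from 0) in control and *Slc39a8*-NSKO mice, ordered by the control mean; points are mice, and bars are mean and SD (n = 3). *Sik1* drops from 2.90 to 1.56 CPM per kb, to the level of *Crem*, and the order of the other genes is the same in both genotypes apart from *Crtc2* and *Sik3*.

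The promoters were searched for the CRE, TGACGTCA, and for its half-site, TGACG or CGTCA by strand, in windows of RefSeq on GRCm38.p6 that run from 250 bases before to 50 bases after the start of transcription. The table held windows for 7 of the 10 genes, *Creb1*, *Atf1*, *Crtc1*, *Crtc3*, *Crebbp*, *Sik2*, and *Sik3*, but not for *Crem*, *Crtc2*, or *Sik1*. The full CRE was in none of the 7 windows and in 1.79% of all 32851 windows. The half-site, which is part of the full CRE, was in 3 of the 7 and in 20.8% of all windows. *Sik3* held 3 half-sites, beginning 133, 116, and 57 bases before the start, *Atf1* held 1, and *Sik2* held 2 that lie at or just after the start. Of the 7 CREB-responsive genes that the study names, none held the full CRE and 6 held at least 1 half-site in such a window. *Nr4a1*, the nuclear receptor gene printed for comparison, held 4, as did *Nr4a2* and *Nr4a3*, the most of any window of the 7. *Fosl2*, which also fell, held none. A relation of half-sites to the RNA differences was not tested. The bases upstream of the start are shown for *Sik3* and *Atf1*, the genes of the module with half-sites there, and for *Nr4a1*, which fell in *Slc39a8*-NSKO mice while *Sik3* and *Atf1* did not pass. They are chr9:46012570-46012819 on the plus strand, chr15:100227609-100227858 on the plus strand, and chr15:101266596-101266845 on the plus strand, 5′ to 3′, with half-sites in capitals.
Sik3: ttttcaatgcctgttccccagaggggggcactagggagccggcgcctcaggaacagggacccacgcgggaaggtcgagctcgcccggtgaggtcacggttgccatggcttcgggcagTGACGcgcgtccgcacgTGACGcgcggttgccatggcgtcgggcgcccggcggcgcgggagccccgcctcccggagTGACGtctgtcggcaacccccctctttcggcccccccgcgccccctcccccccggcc
Atf1: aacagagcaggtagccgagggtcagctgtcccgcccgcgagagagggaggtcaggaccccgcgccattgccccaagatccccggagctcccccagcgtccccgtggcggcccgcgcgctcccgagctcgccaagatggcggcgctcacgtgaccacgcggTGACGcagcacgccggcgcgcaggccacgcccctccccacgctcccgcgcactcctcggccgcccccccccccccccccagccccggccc
Nr4a1: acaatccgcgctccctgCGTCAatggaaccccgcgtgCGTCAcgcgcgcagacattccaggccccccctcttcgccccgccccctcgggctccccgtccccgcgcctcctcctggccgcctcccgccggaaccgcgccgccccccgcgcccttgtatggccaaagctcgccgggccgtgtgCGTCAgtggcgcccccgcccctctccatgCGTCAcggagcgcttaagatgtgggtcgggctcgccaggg

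The capitals mark a match of letters and not a bound site. The 3 half-sites of *Sik3* all read TGACG on the strand shown, as does the single one of *Atf1*, and the 4 of *Nr4a1* all read CGTCA. The RNA of *Sik3* had a ratio of 1.06 and that of *Atf1* a ratio of 0.948 between the genotypes. The ratio of *Nr4a1* was 0.357 (log2 fold change −1.49, s.e. 0.122).

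The genes that act on the module were described by 8 lists, of kinases and phosphatases of CREB and CRTCs, other cofactors, the LKB1 complex that activates SIKs, AMPK-related kinases, class IIa histone deacetylases and MEF2 factors, 14-3-3 proteins with CRTC turnover, and related bZIP factors. These hold 69 genes, of which 66 were tested. None passed in edgeR's test, 2 (3.03%) had an unadjusted p below 0.05, and 1 passed with DESeq2 and 0 with limma-voom. The median log2 fold change of the 66 genes was 0.0004. Among CREB kinases the estimates ran from −0.09 for *Rps6ka1*, a ribosomal S6 kinase, to 0.07 for *Rps6ka5*, which encodes MSK1. Among phosphatases they ran from −0.10 for *Ppp3cc*, a calcineurin catalytic subunit, to 0.04 for *Ppp2cb*. In the LKB1 complex they ran from −0.07 for *Strada* to 0.09 for *Cab39l*, whose products are partners of the kinase, and among AMPK-related kinases from −0.13 for *Prkaa2*, which encodes an AMPK catalytic subunit, to 0.30 for *Nuak2*. *Nuak2* had between 30 and 58 counts per mouse and a standard error of 0.268. Class IIa deacetylases, which SIKs also phosphorylate, gave both ends of their list, with −0.12 for *Hdac7* and 0.16 for *Hdac9*. Among 14-3-3 proteins and CRTC turnover factors the range was from −0.50 for *Sfn* (s.e. 0.256) to 0.09 for *Cop1*, a ubiquitin ligase of CRTC2.

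The genes with an unadjusted p below 0.05 were *Creb5* and *Sirt1*. *Creb5*, a bZIP factor related to ATF2, was 16.1, 17.4, and 15.4 CPM in control mice 1 to 3 and 12.1, 9.81, and 10.2 CPM in *Slc39a8*-NSKO mice 1 to 3. The genotypes did not overlap, and the log2 fold change was −0.61 (s.e. 0.11, edgeR adjusted p = 0.0628), just outside the threshold. It passed with DESeq2 (adjusted p = 0.0312) and without a filter on low counts (edgeR adjusted p = 0.00013), and in none of the other 12 alternative fits, where the adjusted p was at most 0.344. Without the filter, 178 genes passed against 16 in the main fit, while the *Creb5* estimate stayed near its main value, at −0.60. *Creb3l1*, whose product is a transcription factor held in the endoplasmic reticulum, had the highest estimate of the related bZIP factors, at 0.17. *Sirt1*, a deacetylase gene, was 30.8, 34.0, and 31.9 CPM in control and 28.1, 27.6, and 24.9 CPM in *Slc39a8*-NSKO mice, and its estimate was −0.26 on the log2 scale (s.e. 0.076, edgeR adjusted p = 0.612). *Carm1*, an arginine methyltransferase gene, had the highest estimate of the cofactors, at 0.02.

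**Figure D5:**
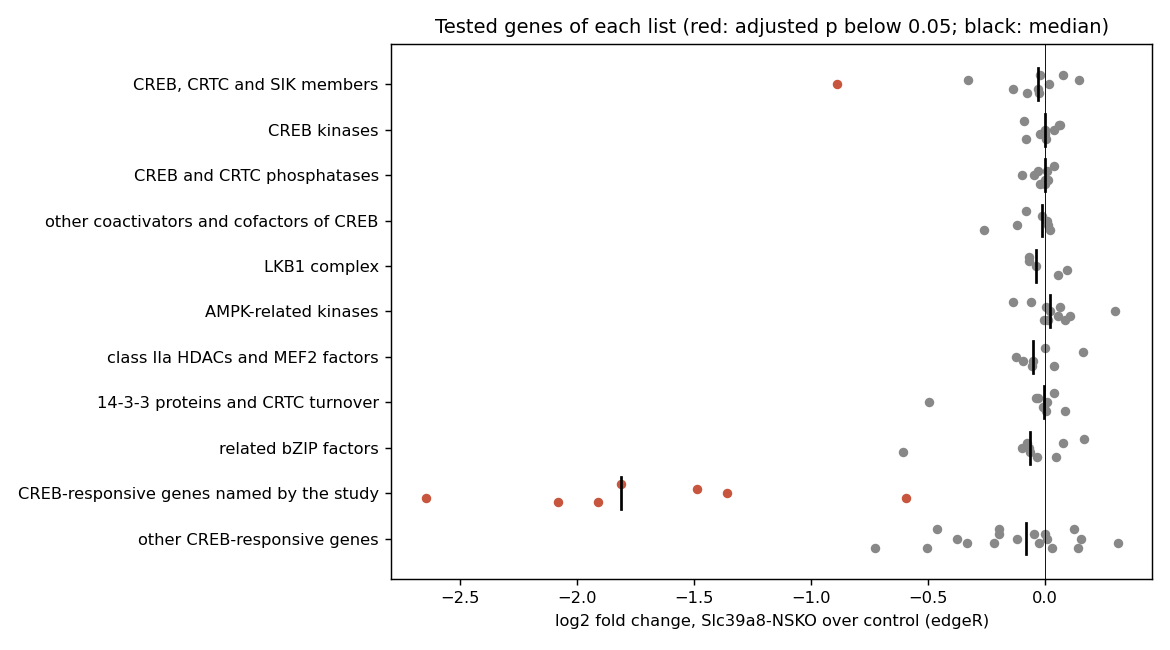
Log2 fold change (x axis, *Slc39a8*-NSKO over control, edgeR) of each tested gene in the module and in 10 lists of related genes (rows); black bars are medians, and red points have an adjusted p below 0.05. Red points are *Sik1* and the 7 CREB-responsive genes that the study names, and the 66 genes of the 8 lists between them are all gray.

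Of the CREB-responsive genes, the 7 that the study names from these samples all fell, with a median log2 fold change of −1.81. Because they were chosen on these samples, their direction here is not independent evidence. For *Nr4a2*, *Nr4a3*, *Per1*, and *Fosb*, the study also reports a fall by qPCR in separate RNA samples. The 7 genes are the nuclear receptor genes *Nr4a1*, *Nr4a2*, and *Nr4a3*, the AP-1 genes *Fos*, *Fosb*, and *Fosl2*, and the clock gene *Per1*. Their estimates ran from −2.65 for *Fosb* to −0.59 for *Per1*, which passed in 8 of the 14 alternative fits, and that of *Sik1* (−0.89) lay between those of *Per1* and *Fosl2* (−1.36). Among the controls, 2 of the 7 were highest in mouse 2, as *Sik1* was, namely *Nr4a2* and *Fos*. Of 20 other CREB-responsive genes, 18 were tested and none passed in edgeR's test, although 6 had an unadjusted p below 0.05, against 5.39% of all genes. Their median log2 fold change was −0.08, and 11 of the 18 estimates were below 0, against 49.5% of all genes. In 4 of them, *Btg2*, *Dusp1*, *Egr1*, and *Nfil3*, the values did not overlap and were lower in *Slc39a8*-NSKO mice, against 5.26% of all genes, and the summed level of the list was 802 to 829 CPM in control and 720 to 770 CPM in *Slc39a8*-NSKO mice. The names *Btg2*, *Egr1*, and *Nfil3* were picked after their values were seen. The lowest was *Dusp1*, a phosphatase gene of the MAPK pathway, with 118, 99.0, and 81.9 CPM in control mice 1 to 3 and 46.2, 55.2, and 80.4 CPM in *Slc39a8*-NSKO mice 1 to 3. *Slc39a8*-NSKO mouse 3 was close to control mouse 3, and the log2 fold change was −0.72 (s.e. 0.163, edgeR adjusted p = 0.21). The fit without *Slc39a8*-NSKO mouse 3 gave −0.98 and passed (edgeR adjusted p = 0.0108), as did the fit without a filter (5.54e-23), and none of the other 12 alternative fits did. Without the filter the *Dusp1* estimate was −0.72, as in the main fit, and 178 genes passed there against 16. The highest estimate was 0.31 for *Sst*, the gene of the neuropeptide somatostatin (s.e. 0.289).

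The genes whose log2 CPM followed *Sik1* most closely over the 6 mice were *Pwwp2b*, *Platr25*, *Spindoc*, *Eapp*, and *Mrpl53*, with Pearson's r between 0.986 and 0.991. All points share the libraries and the genotype difference, and these genes were picked from all genes tested for the likeness. Their own log2 fold changes were smaller, from −0.45 for *Pwwp2b* (s.e. 0.122) to −0.11 for *Mrpl53* (s.e. 0.069), and none passed (edgeR adjusted p between 0.463 and 0.993). *Pwwp2b*, which encodes a chromatin protein, was 9.51, 10.01, and 9.12 CPM in control mice 1 to 3 and 7.01, 6.62, and 7.28 CPM in *Slc39a8*-NSKO mice 1 to 3, so that it repeated the order of *Sik1* within the *Slc39a8*-NSKO mice and was highest in the same control mouse.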

How the data were processed

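Cerebellar RNA of 6 mice, 3 of each genotype, was sequenced. The authors deposited expected counts per gene, without normalization, and the submitters' processing notes name STAR, RSEM, FastQC, DESeq2, and the build mm10; versions and the strand setting are not given in the sources used here. The labels name separate samples and the methods 3 mice per genotype, but a figure legend of the study calls the samples technical triplicates, so p values and SDs measure only the spread between these 6 samples, which may be technical. The 92 spike-in rows (at most 5 counts in a mouse) were left out. The expected counts were rounded and analysed in R 4.3.3 with edgeR 4.0.16 (TMM, filterByExpr, glmQLFit, glmQLFTest), and p values were adjusted by Benjamini-Hochberg across 16330 tested genes. Genes were named and measured from GENCODE M21 (GRCm38), which holds 53620 of the 53715 genes. CPM refer to TMM-scaled library sizes. Intervals used the standard error and degrees of freedom of the fit.

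The alternatives were DESeq2 1.42.0, limma-voom (limma 3.58.1), RLE, library size alone, no filter, at least 10 counts in every mouse, unrounded counts, a block for replicate number, leaving out each mouse, a threshold of 0.1, the longest transcript, and the half-site. The members and lists were chosen with earlier results of these data known. Named genes are the 10 members, the passing genes and both extremes of each list, the 5 genes most like *Sik1*, and *Slc39a8*; *Ppp2r1b* and *Gm6225* overlap members, and the ratios between genes were chosen after their values were seen.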

Additional observations from a re-analysis of the deposited data

How the results depend on the processing

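The direction of *Sik1* held in all 14 alternative fits and its call in 13, the exception being the fit without *Slc39a8*-NSKO mouse 2 (edgeR adjusted p = 0.0671). With each mouse left out its log2 fold change ran from −0.95 to −0.79, and between 0 and 1 of the 10 genes passed. No other gene of the 10 passed in any fit. With a mouse left out, the estimates crossed 0 for *Creb1* (−0.065 to 0.0011), *Crtc1* (−0.044 to 0.0082), *Crtc2* (−0.12 to 0.034), and *Crebbp* (−0.035 to 0.077), none of them past the threshold. The number of genes past the threshold was 37 with DESeq2, 178 with no filter, 27 at a threshold of 0.1, and 9 (without *Slc39a8*-NSKO mouse 2) to 38 (without control mouse 1) with each mouse left out, against 16. With no filter, 13 genes of the pathway lists passed, against 7. The causes were not tested.

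With the replicate number as a block, 41 genes passed, and *Sik1* had a log2 fold change of −0.89 (edgeR adjusted p = 0.0171). The correlations of the deviations from the genotype means between same-numbered mice were 0.142, 0.116, and 0.0104. Between mice of different number they ran from −0.177 to 0.0665. Control mice 1 and 2 correlated best with the *Slc39a8*-NSKO mouse of the same number, and control mouse 3 with *Slc39a8*-NSKO mouse 1 (0.0355). Whether same-numbered mice shared more than a number was not tested, and no call among the 10 genes changed.

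With the longest transcript as the length, the control shares were 43.0% for *Creb1*, 18.5% for *Crem*, 38.5% for *Atf1*, 42.9% for *Crtc1*, 18.3% for *Crtc3*, 12.5% for *Sik1*, and 17.2% for *Sik2* of their families. Searching for the half-site in place of the full CRE found it in 3 windows in place of 0.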
